A study of Mus musculus with 24 samples.

Results

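Gene deserts are long stretches of the genome without protein-coding genes. The regions described here are stretches of open chromatin in mouse hindlimb muscle that lie more than 200 kb from every protein-coding gene body of the RefSeq annotation (mm10, GRCm38.p6). The assay was ATAC-seq: a transposase, Tn5, inserts adapters into DNA that nucleosomes leave free, and sequenced fragments pile up there as peaks. Peaks of all 24 libraries on chromosomes 1 to 19 were merged into 915322 regions, of which 464872 were called in 1 list only and set aside. Of the 450450 regions called in 2 or more lists, 35511 (7.88%) lay in a gene desert, and 5846 of these were called in 10 or more lists and 414 in all 24. The distance rule used no measured value, but the minimum of 2 lists did, so the number of lists below 2 is not a finding.

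The libraries came from male FVB/NJ mice, an inbred strain with no engineered allele or treatment in either stage. At each stage there were 3 replicates, and each gave 4 muscles: soleus and vastus intermedius, which the study named slow-biased for their slow fibre content, and gastrocnemius and vastus lateralis, which it named fast-biased. The adult group comprised 3 mice, given as P56 in the design text and as 3 to 4 months old in the protocol, a difference that was not settled. The E18.5 group comprised 3 litters, and each library pooled muscle of up to 5 male embryos of 1 litter. Nuclei were taken from undigested tissue, which holds vessels, nerve, connective tissue and blood cells besides muscle fibres. Loci of muscle genes were called throughout (6 of 7 marker loci had a region in the gene or within 1 kb in all 24 libraries, and the lowest had one in 23). So were most marker loci of other cells (12 of 14 in all 24). Among these were markers of fibroblasts, endothelium, leukocytes, Schwann cells, tendon and cartilage. The exceptions were the fibroblast gene Dcn, with 20 libraries, and the leukocyte gene Ptprc, with 13. A call from muscle fibres and a call from another cell type, or a change in the number of such cells, cannot be told apart here. The deposited lists held 115333 to 228137 peaks each, and read depth was unknown, so list length was the only measure of it.

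Open regions far from genes are commonly distal regulatory elements: enhancers, which raise transcription of a gene over long distances through looping, silencers, and sites that bind the architectural protein CTCF. Gene deserts are known to surround genes that control development, such as transcription factors and signalling molecules, whose limb, muscle or nerve enhancers can lie far beyond the nearest gene. Other deserts flank genes of neuronal cell adhesion and hold little known regulatory sequence. The gene that a distal region acts on cannot be read from its position, and the flanking genes below are given as landmarks only.

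A gene desert without protein-coding genes can still hold starts of long noncoding RNAs (lncRNAs) and microRNAs, and these were the only desert sequences for which the RefSeq tables (GRCm38.p6, strain C57BL/6J) gave bases. Of 1023 promoter windows in deserts, which reach from 250 bases before to 50 bases after an annotated start, 294 (28.7%) overlapped one of the desert regions, against 72.9% of the 30342 windows outside deserts that overlapped a kept region. The windows below are the 3 of each direction with the smallest stage p-values (ties by position), chosen after their values were seen. They overlap desert regions called more often at 1 stage, some of them only in part, and do not stand for desert regions in general. Capitals mark matches to any of 10 motifs searched on both strands: MEF2, E-box, AP-1, TEAD, CTCF, nuclear factor I, the glucocorticoid response element, ERR (TCAAGGTCA), RUNX (TGTGGTTT) and ETS (ACAGGAAGT). The lncRNA start Gm40601 (chr10:12058398-12058697, plus strand) lay wholly inside a region that 11 adult libraries of 12 and no E18.5 library called (11 and 0), between Epm2a and Utrn. Its capitals are a MEF2 motif (CTA and TAG with any 4 bases between them), the site of the MEF2 factors of muscle, and an E-box of the form CAGCTG, which the myogenic factors MyoD and myogenin prefer. Gm32918 (chr15:74204400-74204699, minus strand, between Gm6569 and Adgrb1) lay inside a region called in 10 adult and 0 E18.5 libraries and matched none of the 10 motifs. Gm36372 (chr12:16232395-16232694, minus strand, between Trib2 and Lpin1) lay inside a region called in 9 adult and 0 E18.5 libraries and held 1 such E-box.
Gm40601: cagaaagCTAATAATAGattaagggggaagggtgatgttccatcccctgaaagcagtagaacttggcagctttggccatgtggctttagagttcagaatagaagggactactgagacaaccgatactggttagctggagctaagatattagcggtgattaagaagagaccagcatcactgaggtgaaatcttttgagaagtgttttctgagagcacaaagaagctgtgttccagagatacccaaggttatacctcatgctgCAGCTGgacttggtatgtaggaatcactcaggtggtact
Gm32918: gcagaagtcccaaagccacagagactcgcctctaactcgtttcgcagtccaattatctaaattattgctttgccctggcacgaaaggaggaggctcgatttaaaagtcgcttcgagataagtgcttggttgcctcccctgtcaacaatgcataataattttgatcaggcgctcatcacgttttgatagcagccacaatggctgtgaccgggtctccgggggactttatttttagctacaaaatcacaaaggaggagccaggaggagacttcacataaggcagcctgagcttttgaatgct
Gm36372: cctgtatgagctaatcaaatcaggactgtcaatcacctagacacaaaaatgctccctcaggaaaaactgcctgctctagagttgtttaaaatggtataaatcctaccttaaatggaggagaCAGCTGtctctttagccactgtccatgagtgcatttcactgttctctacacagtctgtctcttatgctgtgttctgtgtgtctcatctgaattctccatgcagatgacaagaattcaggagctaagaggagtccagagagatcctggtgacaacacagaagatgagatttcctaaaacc

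The reverse pattern was seen at 3 other windows. The window of Gm30113 (chr15:62953966-62954265, plus strand, between Myc and Gsdmc) overlapped a region called in 12 of 12 E18.5 and 0 of 12 adult libraries. That region covered only its first 70 bases, which lie before the start, so the start itself was outside. The window matched none of the 10 motifs. Gm11228 (chr4:71131084-71131383, minus strand, between Megf9 and Gm11232) lay inside a region called in 11 E18.5 and 0 adult libraries. Its capitals are a match to the AP-1 pattern as searched (TGANTCA, any middle base, here TGAATCA) and a TEAD motif (ACATTCCA). The window of Gm34052 (chr7:39863276-39863575, plus strand, between Gm33989 and Vstm2b) overlapped a region called in 11 E18.5 and 0 adult libraries. That region covered only its first 50 bases, and both its E-box and the start lay outside these.
Gm30113: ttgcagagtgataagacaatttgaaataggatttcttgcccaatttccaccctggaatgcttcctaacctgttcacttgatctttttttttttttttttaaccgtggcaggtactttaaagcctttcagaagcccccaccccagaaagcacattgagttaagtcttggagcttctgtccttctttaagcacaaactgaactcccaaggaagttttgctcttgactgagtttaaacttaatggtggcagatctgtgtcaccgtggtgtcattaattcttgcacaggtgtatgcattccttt
Gm11228: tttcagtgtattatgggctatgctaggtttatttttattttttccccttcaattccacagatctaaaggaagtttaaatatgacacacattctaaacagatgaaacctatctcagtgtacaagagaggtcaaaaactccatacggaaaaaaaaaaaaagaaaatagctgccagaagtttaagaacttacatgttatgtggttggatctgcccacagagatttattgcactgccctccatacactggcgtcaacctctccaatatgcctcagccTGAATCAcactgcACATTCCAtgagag
Gm34052: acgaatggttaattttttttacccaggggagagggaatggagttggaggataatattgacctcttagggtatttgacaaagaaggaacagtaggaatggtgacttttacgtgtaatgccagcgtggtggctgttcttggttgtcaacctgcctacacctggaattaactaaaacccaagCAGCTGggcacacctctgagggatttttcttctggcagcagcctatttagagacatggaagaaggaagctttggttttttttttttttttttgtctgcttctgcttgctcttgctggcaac

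Single matches of such short motifs are frequent. The E-box was found in 16.3% of all 31365 promoter windows, in 15.5% of those in deserts and in 22.8% of the 294 that overlapped a desert region. The MEF2 motif was found in 3.73%, 4.89% and 4.76% of these sets, and the TEAD motif in 1.38%, 1.76% and 1.70%. The AP-1 pattern, with any middle base, was found in 7.85%, 10.8% and 12.9%. The CTCF core was found in 0.931%, 0.196% and 0.340%, and the other motifs in at most 1.86% of any set. The shares are descriptions of these windows. Those in deserts lie around starts of noncoding RNAs and touch a small part of the desert regions: 259 of the 35511 regions were touched by a window.

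Of 44 annotated microRNA hairpins in deserts, 11 overlapped a desert region. Those that the values turn on are printed with the seed, bases 2 to 8, in capitals, since the seed sets the targets of a microRNA. Mir125b-1 lay in a region called in all 24 lists (chr9:41579454-41582537), whereas Mir100, in the same desert between Ubash3b and Gm40514, lay at the edge of a region called in 5 lists, 3 of them adult and 2 E18.5. Mir99a, which has the same seed as Mir100, overlapped a region called in 2 adult lists only. Mir344g, between Gm51483 and Ndn, overlapped a region that 9 E18.5 libraries and no adult library called (adjusted p = 0.0112, Fisher's exact test with the Benjamini-Hochberg method). Mir802, between Runx1 and Setd4, overlapped a region called in 3 adult and 11 E18.5 libraries (adjusted p = 0.0451, Fisher's exact test).
mmu-miR-125b-5p: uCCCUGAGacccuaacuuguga
mmu-miR-100-5p: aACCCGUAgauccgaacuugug
mmu-miR-99a-5p: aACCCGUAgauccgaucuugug
mmu-miR-344g-5p: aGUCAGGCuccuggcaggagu
mmu-miR-802-5p: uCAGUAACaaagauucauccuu

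Desert regions were called in fewer libraries than regions near genes. The share of regions called in 10 or more lists was 27.4% for those overlapping a gene body, 22.8% within 50 kb of a gene, 18.9% at 50 to 200 kb and 16.5% in deserts, against 24.2% of all kept regions. The share called in all 24 lists fell more steeply over the same classes, from 5.77% over 2.39% and 1.58% to 1.17%. Of regions seen in a single list, 13.5% lay in deserts, against 7.88% of those kept. Desert regions had a median width of 634 bp, against 747 bp for all kept regions. They were also sparse: between the first and the last gene of the chromosomes, deserts made up 479 Mb or 19.7% of the length and held 73.7 kept regions per Mb, against 241 per Mb in gene bodies. For regions in 10 or more lists the densities were 12.03 and 66.0 per Mb. These are descriptions of calls on 24 libraries that share a caller and a tissue.

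**Figure D1:**
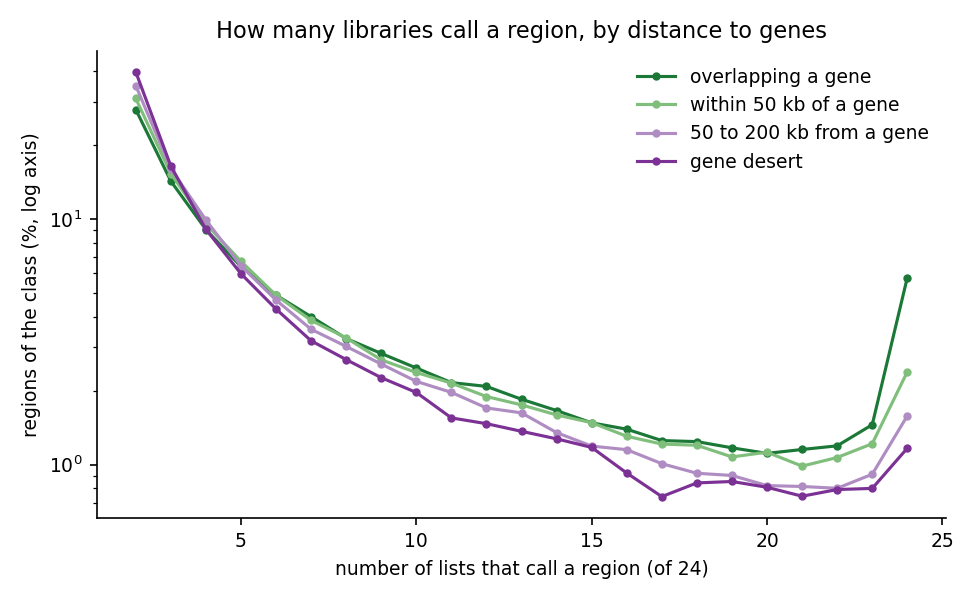
Share of regions (log axis, in %) by the number of lists that call them, for 4 classes of distance to the nearest protein-coding gene. Every class is highest at 2 lists and rises again at 24, where 1.17% of desert regions stand against 5.77% of regions overlapping a gene.

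Just inside the distance limit, at 200 to 220 kb, lay 3423 regions, of which 17.2% were called in 10 or more lists and 0.876% in all 24. Just outside it, at 180 to 200 kb, lay 3919, with 17.9% and 1.33%. Within deserts the share in 10 or more lists was 16.7% at 200 to 300 kb (13691 regions), 16.3% at 300 to 500 kb (11399), 15.5% at 500 to 1000 kb (7542) and 18.4% at 1000 to 2000 kb (2821). Only 58 regions lay farther than 2000 kb from a gene. The farthest of all (chr18:28009642-28010612, between Celf4, which encodes an RNA-binding protein, and Pik3c3, which encodes a lipid kinase of autophagy) was 2255 kb from either gene and was called in 5 adult and 4 E18.5 libraries.

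Some regions at great distance were open in every library. The 5 regions in all 24 lists that lay farthest from a gene were 1637 to 1774 kb away. They lay between Olfm4 and Pcdh17 (chr14:81796663-81798333), D3Ertd751e and Pcdh10 (chr3:43556797-43558549), Celf4 and Pik3c3 (chr18:27461708-27463524), Dsel and Cntnap5a (chr1:114034272-114036398) and Hace1 and Grik2 (chr10:47452218-47456694). Pcdh17 and Pcdh10 encode protocadherins, which mediate adhesion between nerve cells, Cntnap5a a contactin-associated membrane protein and Grik2 a glutamate receptor subunit. These regions were 1671 to 4477 bp wide, all wider than the median desert region.

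The first comparison asked whether the share of a library's called regions that lie in deserts differs between stages and muscles. In the adult, the 3 soleus libraries had desert shares of 7.05%, 7.99% and 7.31%, the vastus intermedius libraries 6.19%, 5.94% and 5.58%, the gastrocnemius libraries 6.32%, 7.22% and 5.46%, and the vastus lateralis libraries 8.09%, 6.15% and 5.65%. Adult soleus was high in all 3 animals, and 1 vastus lateralis library, of the first animal, was the highest of all. At E18.5 the soleus libraries had 5.17%, 6.19% and 6.65%, vastus intermedius 5.78%, 6.20% and 6.40%, gastrocnemius 5.68%, 5.32% and 5.26%, and vastus lateralis 5.21%, 6.13% and 6.49%. The ranges of the stages overlapped, with 5.46% to 8.09% in the adult and 5.17% to 6.65% at E18.5.

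**Figure D2:**
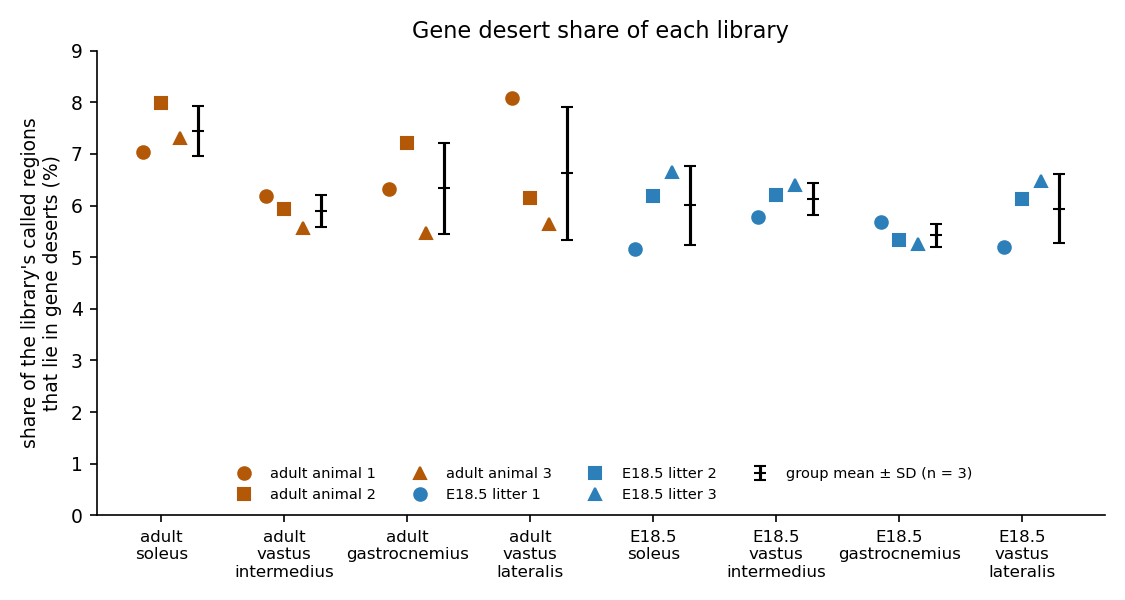
Share of each library's called regions that lie in gene deserts (in %, axis from 0), for 8 groups of 3 libraries, with the group mean and SD. Symbols mark the animal or litter. The adult soleus libraries sit between 7.05% and 7.99%, with 1 adult gastrocnemius library (7.22%) among them and 1 adult vastus lateralis library (8.09%) above them.

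Over animals and litters, each the mean of its 4 muscles, adults had a desert share of 6.58% ± 0.504 and E18.5 litters one of 5.87% ± 0.379 (n = 3 each, SD), a difference of 0.704 percentage points that did not pass an exact permutation test (two-sided p = 0.2, Benjamini-Hochberg adjusted over 5 comparisons 0.400). With 3 against 3 the smallest p is 0.1, so this design cannot pass 0.05. It was smaller among regions of many lists. Counting only regions of 10 or more lists, adults had 5.04% ± 0.192 and litters 5.07% ± 0.319 (exact permutation p = 0.8), and among regions of 20 or more lists 3.98% ± 0.0785 and 3.92% ± 0.118 (p = 0.6, exact permutation). An adult library called 3004 desert regions of 2 to 4 lists on average and an E18.5 library 1874, while of the desert regions in 10 or more lists the averages were 3580 and 4167 (exact permutation p = 0.2 for each, n = 3 animals against 3 litters). Longer adult lists had larger desert shares (Pearson's r = 0.751 and Spearman's rho = 0.720 over 12 libraries, which share animals), a relation that was weak at E18.5 (r = 0.0936 and rho = 0.119).

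Between muscles no difference in desert share passed the test. Slow-biased muscles had 6.68% ± 0.923 and fast-biased muscles 6.48% ± 1.00 in the adult (6 libraries each, mean ± SD, two-sided exact permutation p = 0.742, adjusted 0.742), and 6.07% ± 0.525 and 5.68% ± 0.525 at E18.5 (exact permutation p = 0.223, adjusted 0.400). The slow-biased mean was the higher in 2 of 3 adults and in 3 of 3 litters. Calf muscles (soleus and gastrocnemius) had 6.89% ± 0.881 and thigh muscles (both vastus muscles) 6.26% ± 0.928 in the adult (exact permutation p = 0.249, adjusted 0.400), and 5.71% ± 0.595 and 6.03% ± 0.474 at E18.5 (exact permutation p = 0.320, adjusted 0.400). Calf minus thigh was above 0 in 2 of 3 adults and below 0 in 3 of 3 litters. Permuting within animals or litters, with a smallest p of 0.00926, changed none of these 4 calls.

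Adult soleus and adult vastus intermedius, which the study placed in the same slow-biased class, did not overlap in desert share (7.05% to 7.99% and 5.58% to 6.19%). Soleus was above the mean of the other 3 muscles of its animal by 0.180, 1.56 and 1.75 percentage points in the 3 adults, and at E18.5 by -0.391, 0.308 and 0.603 points in the 3 litters. The mean library of adult soleus called 26.7% of all desert regions and that of adult vastus intermedius 17.03%, with 23.4% in gastrocnemius and 25.9% in vastus lateralis. At E18.5 the 4 muscles lay between 21.9% and 23.3%. The lists of adult vastus intermedius were also the shortest (115333 to 145382 peaks, against 149426 to 211875 in adult soleus), and the part of list length in this difference was not tested.

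Single regions were then compared between stages, by Fisher's exact test on the number of libraries that called each (12 adult against 12 E18.5), with p-values adjusted over all kept regions whose number of calls allowed a p under 0.05. Of 10851 desert regions tested, 618 (5.70%) were called more often at E18.5 and 107 (0.986%) more often in the adult. Over all 165986 regions tested the background was 4.56% and 1.57%, and these shares were not particular to deserts: at 50 to 200 kb from a gene they were 6.20% and 1.39%, and within 50 kb 4.83% and 1.29%. At 180 to 200 kb, just outside the distance limit, 8.18% were E18.5-higher, and at 200 to 220 kb, just inside it, 5.37%. Of the called desert regions 85.2% were E18.5-higher, against 74.4% of called regions everywhere, and whether deserts differ in this from other regions was not tested. Libraries of 1 animal or litter are not independent, so these p-values are too small. Fully separated regions, which are among those called, showed the same order: 40 desert regions (0.113%, background 0.0646%) were called in 12 of 12 E18.5 and 0 of 12 adult libraries, and 4 (0.0113%, background 0.0233%) in every adult and in no E18.5 library. Regions called at a single stage, in any number of its libraries, were in the other order. Of the 35511 desert regions, 8358 were called in adult libraries only and 3479 at E18.5 only, against 67471 and 46445 of all 450450 kept regions. With an equal number of peaks drawn at random from each list, 73 desert regions were E18.5-higher and 10 adult-higher, and 1 and 0 were fully separated. The fall was not particular to deserts: over all kept regions the counts went from 7561 and 2602 to 828 and 344. With the first rows of each list instead, as many as the shortest holds, 813 desert regions were E18.5-higher and 141 adult-higher, against 11016 and 4073 of all kept regions. The counts thus depended on how list length was made equal, and the order of rows is not stated. Leaving out an animal or litter moved the count of E18.5-higher regions to between 264 and 726 and that of adult-higher regions to between 39 and 90. It fell to 264 without the first litter and to 338 without the first adult. Adult-higher regions fell to 39 to 56 without any 1 litter, to 56 without the first adult and to 67 without the third.

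**Figure D3:**
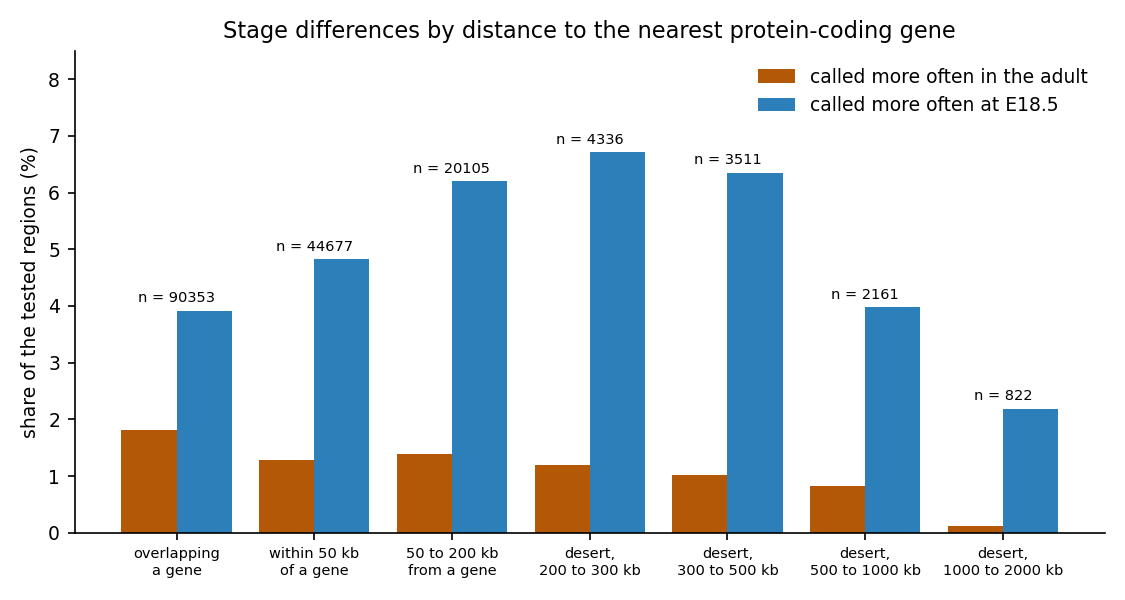
Share of tested regions (in %, axis from 0) called more often in the adult or at E18.5 by Fisher's exact test (adjusted p under 0.05), by distance to the nearest protein-coding gene, with the number tested above each pair. E18.5-higher regions outnumber adult-higher ones in every class, and at 200 to 300 kb they number 291 against 52.

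With distance, calls of either direction became scarcer inside the deserts. At 200 to 300 kb from a gene, 291 of 4336 tested regions were E18.5-higher and 52 adult-higher, at 300 to 500 kb 223 and 36 of 3511, at 500 to 1000 kb 86 and 18 of 2161, and at 1000 to 2000 kb 18 and 1 of 822. None of the 21 tested regions beyond 2000 kb passed in either direction (0 and 0). E18.5-higher regions were found in 289 of the 708 deserts that held a region, adult-higher ones in 67, and 42 deserts held both kinds.

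The 4 desert regions called in every adult and in no E18.5 library had the smallest p of the adult direction (Fisher's exact p = 7.4e-07, adjusted 0.00031). The first (chr7:74862422-74863807) lay 251 kb from Sv2b, a synaptic vesicle protein, and 308 kb from Slco3a1, an organic anion transporter. The second (chr10:17366972-17367868) lay 355 kb from Cited2, a regulator of the coactivators CBP and p300, and 2596 kb from Nmbr, a receptor of neuromedin B. The third (chr13:82559149-82560810) lay 943 kb from Mef2c, a transcription factor of muscle differentiation, and on the other side 762 kb from Cetn3, a centrin. The fourth (chr15:63006328-63007462) lay 1016 kb from Myc, a transcription factor of cell growth, and 769 kb from Gsdmc, a gasdermin. Of the 2 desert regions called in 11 adult and 0 E18.5 libraries, which share the next smallest p, the first by position was that around the start of Gm40601 printed above (chr10:12057980-12060390, 322 kb from Utrn, which encodes utrophin, the relative of dystrophin), with Fisher's exact p = 9.6e-06 (adjusted 0.00112). It was missed in 1 adult soleus library. Single alternatives ended 3 of these calls: that of chr7:74862422-74863807 with an equal number of peaks from each list (adjusted p = 0.121), that of chr10:12057980-12060390 with peaks of 500 bp or wider (adjusted p = 0.105), and that of chr13:82559149-82560810 without the first adult (adjusted p = 0.0973, Fisher's exact test throughout).

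Of the 40 regions called in every E18.5 and in no adult library, the first 5 by position were at 3 places, since all share the same p (Fisher's exact p = 7.4e-07, adjusted 0.00031). A pair lay in the desert between Slc4a3, an anion exchanger, and Epha4, an ephrin receptor of axon guidance, 1 of them 280 kb from Slc4a3 (chr1:75838957-75840292) and the other 291 kb from Epha4 (chr1:77074450-77075916). Another pair lay between Rasgrp1, an activator of Ras in lymphocytes, and Thbs1, the matrix protein thrombospondin 1 (chr2:117731511-117732901 and chr2:117743330-117744570), inside the lncRNA gene Gm32210. The fifth (chr2:147647132-147649148) lay 272 kb from Pax1, a transcription factor of the vertebral column, and 394 kb from Foxa2, a factor of endoderm and floor plate. Further regions of this kind, named after their values were seen, lay next to Meis1 (348 kb) and Zfp703 (254 kb), which encode transcription regulators, Nfib (361 kb), a nuclear factor I gene, Gata6 (248 kb), a zinc finger factor of heart and endoderm, Nrp1 (354 kb), a semaphorin receptor, Igfbp3 (246 kb), which binds insulin-like growth factors, and Has2 (262 kb), which makes hyaluronan. These genes were picked and do not stand for all 40 regions. Others of the 40 lay nearest to Tmem167 (226 kb), Plpp4 (228 kb), Eci2 (257 kb), Dleu7 (289 kb), Ostf1 (306 kb) and Ptchd4 (360 kb).

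The deserts themselves differed widely. The 708 deserts with a region held a median of 37 and at most 376, and 75 of them held no region in 10 or more lists. The 12 deserts with the most regions in 10 or more lists held 690 of these, 11.8% of the 5846, and 6.91% of all desert regions. They also held 21 of the 107 adult-higher and 37 of the 618 E18.5-higher regions.

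The desert with the most shared regions goes against its label. Between Adam6a and Zfp386 (chr12:113546415-116047713, 2501 kb) lay 376 regions, 183 of them in 10 or more lists and 36 in all 24. It has no protein-coding gene in the annotation, but 184 antigen receptor gene segments, those of the immunoglobulin heavy chain, which lymphocytes join into antibody genes, and 326 of its regions were within 10 kb of one. The eighth desert of the ranking, between Gm36448 and Dad1 (chr14:52541357-54235484), held 148 regions, 43 of them in 10 or more lists. It holds 201 segments, those of the T cell receptor alpha and delta chains, and 144 of its regions were within 10 kb of one. In all, 595 desert regions were near a segment, and 36.8% of them were called in 10 or more lists, against 16.1% of the other 34916. The segments are families of similar copies, and the treatment of reads that match several places is not given in the sources used here, and single calls at these loci are uncertain. In the Adam6a to Zfp386 desert, adult libraries called 159 to 232 regions (median 189.5) and E18.5 libraries 88 to 222 (median 157), which overlapped. Of the desert regions near segments, 2 were adult-higher and 2 E18.5-higher of 238 tested. Without these loci adults had a desert share of 6.38% and E18.5 litters one of 5.71%.

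The other 10 deserts of the ranking lay beside genes of several kinds. Between Rps24, a ribosomal protein gene, and Zmiz1, a transcriptional coregulator (chr14:24496961-25457874), 206 regions were found, 61 of them in 10 or more lists. Its 961 kb hold 20 lncRNA genes, and 99 of the regions overlapped one. Adult libraries called 40 to 77 of its regions (median 63.5) and E18.5 libraries 37 to 99 (median 65.5). Between Mki67, the proliferation marker Ki-67, and Mgmt, a DNA repair enzyme (chr7:135716451-136894462), 244 regions were found, 57 in 10 or more lists. Adult libraries called 34 to 80 (median 60.0) and E18.5 libraries 42 to 98 (median 72.5). In both deserts the stages overlapped over most of their range.

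A large desert of 3697 kb separates Zeb2, a zinc finger repressor of neural crest and mesenchyme, from Acvr2a, a receptor for activin and myostatin (chr2:45117443-48814108). It held 225 regions, 50 in 10 or more lists, of which adult libraries called 43 to 75 (median 59.0) and E18.5 libraries 39 to 85 (median 60.0). The desert between Med13l, a Mediator subunit, and Tbx3, a T-box factor of limb patterning (chr5:118765439-119670533), held 193 regions, 44 in 10 or more lists. Adult libraries called 33 to 65 (median 47.5) and E18.5 libraries 27 to 75 (median 54.0). Beside these, the deserts between Mn1, a transcriptional coactivator, and Cryba4, a lens crystallin (152 regions, 48 in 10 or more lists), and between Plpp3, a lipid phosphatase, and Usp24, a deubiquitinase (177 and 46), had called regions in overlapping numbers at either stage. Their medians were 50.5 and 53.5, and 46.0 and 54.5, in adult and E18.5 libraries.

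In the last 4 of the 12 the adult median was the higher. Between Dsel, an epimerase of matrix glycans, and Cntnap5a (193 regions, 40 in 10 or more lists), adult libraries called a median of 47.0 regions (35 to 84) and E18.5 libraries 38.5 (16 to 55). Between Myc and Gsdmc (179 and 40) the medians were 51.0 (37 to 61) and 42.0 (26 to 66). Between Cd83, a marker of mature dendritic cells, and Jarid2, a partner of the Polycomb repressive complex (156 and 40), they were 52.0 (42 to 66) and 39.0 (24 to 61). Between Nmbr and Cited2 (205 and 38) they were 51.0 (33 to 70) and 40.0 (22 to 61). The stages overlapped in all 4. The order rested on regions of few lists or narrow peaks in 3 of them. Adult minus E18.5 calls per library were 13.5, 7.58 and 10.2 in the deserts of Dsel, Myc and Nmbr, but -0.250, -1.42 and -0.167 when only regions of 10 or more lists were counted. With peaks of 500 bp or wider they were 0.583, -1.75 and -1.33. In the Cd83 desert they were 12.3, 2.67 and 3.83 in these settings.

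**Figure D4:**
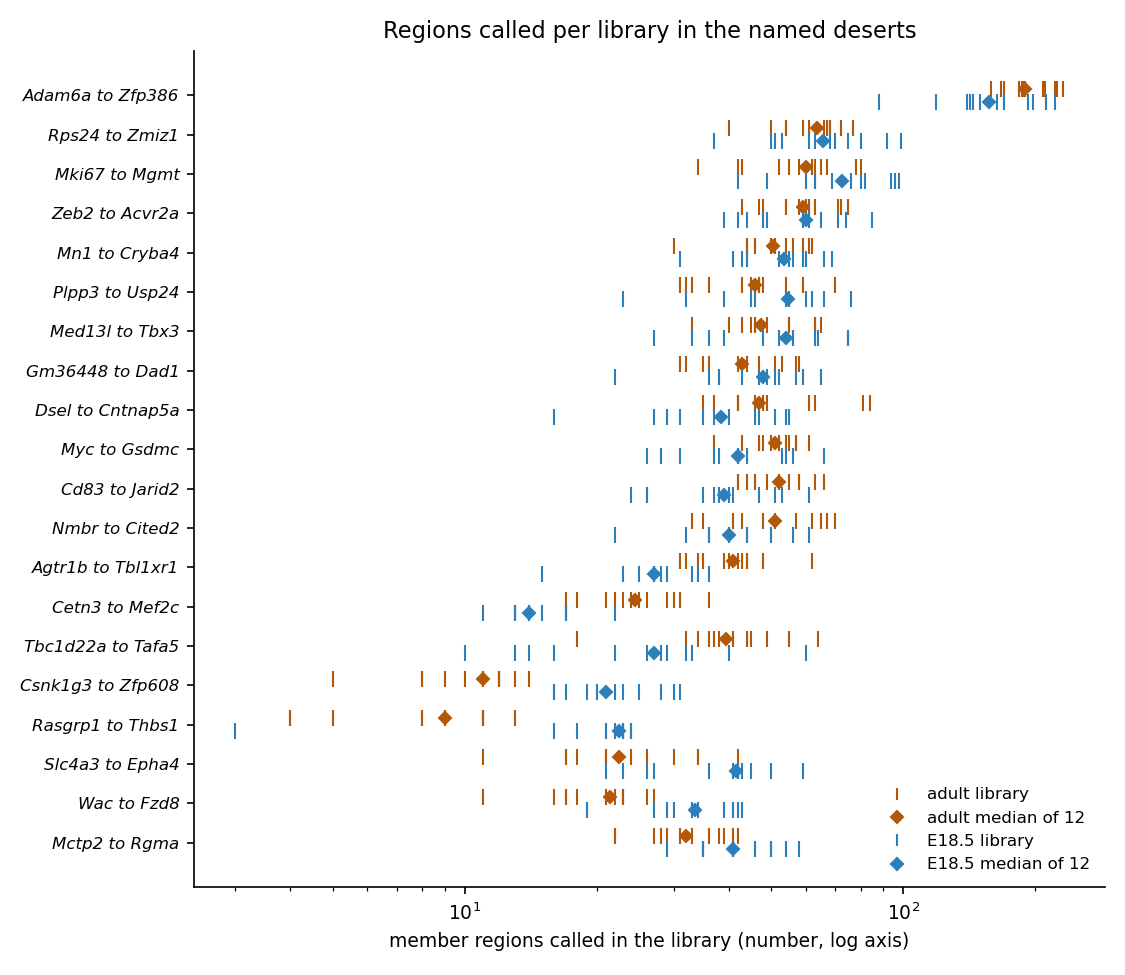
Number of desert regions called in each of 12 adult and 12 E18.5 libraries (ticks) with the median (diamonds), for the 20 named deserts, on a log axis. The stages overlap in every desert but the one between Csnk1g3 and Zfp608, where adult libraries call 5 to 14 and E18.5 libraries 16 to 31.

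The desert between Myc and Gsdmc held the most adult-higher regions, 7 of 70 tested, and also 5 E18.5-higher ones. The rule that ranks deserts here used the stage calls, so these counts are a description. Called regions of opposite direction were neighbours in it: a pair called in 12 of 12 E18.5 and 0 of 12 adult libraries lay 944 and 962 kb from Myc (chr15:62934325-62935701 and chr15:62952706-62954035, the second overlapping the Gm30113 window printed above), and the adult-only region at chr15:63006328-63007462 lay 1016 kb from Myc. A like arrangement was seen between Epm2a and Utrn, where a region called in 12 E18.5 and 0 adult libraries (chr10:12045357-12046585) lay 336 kb from Utrn and the region of Gm40601, called in 11 adult and 0 E18.5 libraries, 322 kb from it. That desert was chosen after its values were seen.

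The next deserts led the adult direction. Between Cd83 and Jarid2, 5 regions were adult-higher and 4 E18.5-higher of 61 tested. Between Agtr1b, an angiotensin receptor, and Tbl1xr1, a subunit of corepressor complexes, 4 were adult-higher and 0 E18.5-higher of 43, and adult libraries called 31 to 62 of its 148 regions (median 41.0) against 15 to 36 (median 27.0). Between Cetn3 and Mef2c, 4 and 0 of 31 were called, and adult libraries called 17 to 36 of 101 regions (median 24.5) against 11 to 22 (median 14.0). The mean over animals was 25.2 ± 2.13 in adults and 15 ± 1.32 in litters (SD, n = 3). Between Tbc1d22a, a Rab regulator, and Tafa5, a secreted protein of nerve tissue, 3 and 0 of 64 were called, and the ranges were 18 to 64 (median 39.5) and 10 to 60 (median 27.0). The stages overlapped in each of these. Counting only regions of 10 or more lists, adult minus E18.5 calls per library fell from 13.6 to 1.33 between Agtr1b and Tbl1xr1, from 10.2 to 2.58 between Cetn3 and Mef2c, and from 14.2 to 1.33 between Tbc1d22a and Tafa5. With peaks of 500 bp or wider they were 1.17, 3.17 and 0.333.

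In the E18.5 direction the desert between Csnk1g3, a casein kinase, and Zfp608, a zinc finger protein (chr18:53955685-54888044), led with 11 E18.5-higher and 0 adult-higher regions of 26 tested. The 4 adult gastrocnemius, soleus, vastus intermedius and vastus lateralis libraries of the first animal called 12, 8, 9 and 14 of its 65 regions, those of the second 12, 11, 13 and 11, and those of the third 8, 10, 5 and 12. The E18.5 libraries, in the same order, called 31, 22, 30 and 25 in the first litter, 28, 23, 19 and 16 in the second and 20, 17, 20 and 16 in the third. Every E18.5 library was above every adult library, which was so in 1 of 708 deserts (0.141%), and the reverse in 0. Over animals the means were 10.4 ± 1.53 and 22.3 ± 4.42 (SD, n = 3 each).

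**Figure D5:**
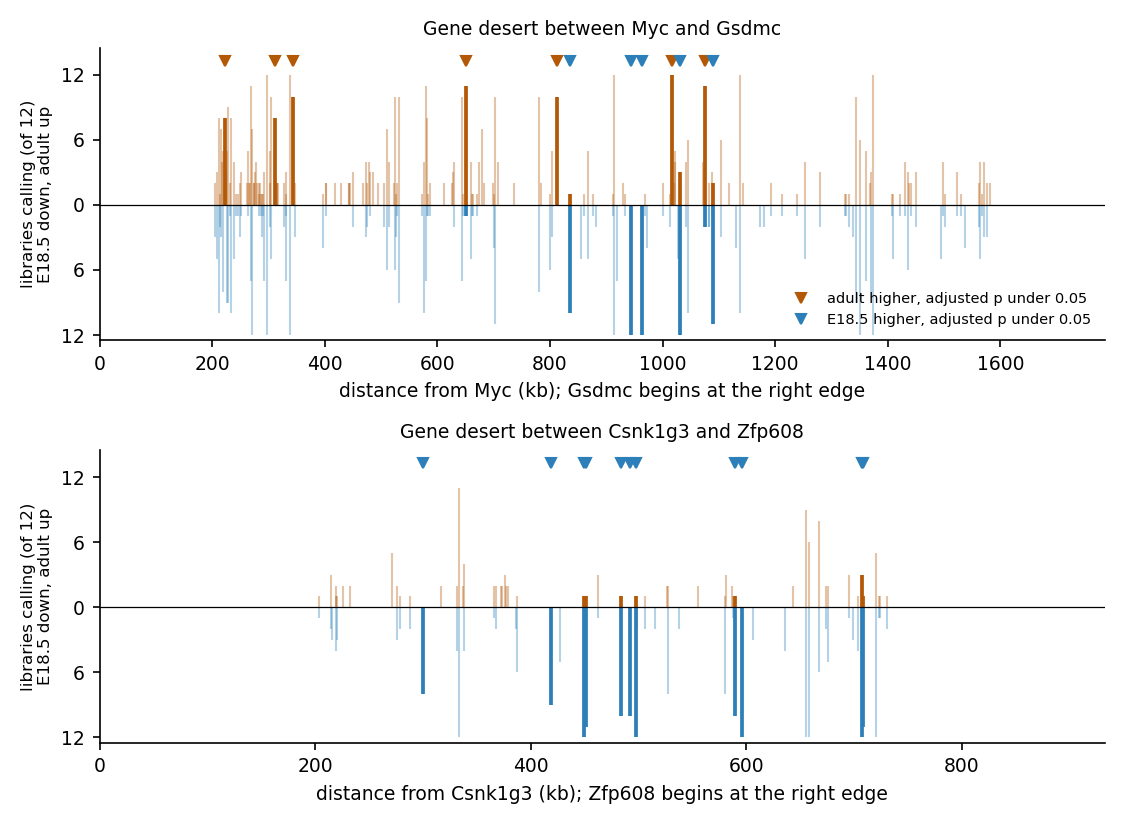
Number of libraries that call each region, adult upward and E18.5 downward (of 12 each), against the distance from the left gene in kb, for the deserts Myc to Gsdmc and Csnk1g3 to Zfp608. Triangles mark regions that differ between stages (adjusted p under 0.05): 7 adult-higher and 5 E18.5-higher in the first, 0 and 11 in the second.

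The desert between Rasgrp1 and Thbs1 followed, with 10 E18.5-higher and 0 adult-higher regions of 21 tested. Adult libraries called 4 to 13 of its 63 regions (median 9.0) and E18.5 libraries 3 to 24 (median 22.5). The lowest E18.5 value was that of soleus of the third litter, and the other 11 E18.5 libraries called 16 to 24, above every adult library. Between Slc4a3 and Epha4, 8 and 0 of 51 were called, with 11 to 42 regions in adult libraries (median 22.5) and 21 to 59 at E18.5 (median 41.5). Between Wac and Fzd8, a Wnt receptor, 8 and 0 of 40 were called, with 11 to 27 (median 21.5) and 19 to 43 (median 33.5). Between Mctp2 and Rgma, a guidance protein and coreceptor for bone morphogenetic proteins, 7 and 0 of 56 were called, with 22 to 42 (median 32.0) and 29 to 58 (median 41.0).

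Between slow-biased and fast-biased muscles, no desert region passed Fisher's exact test after adjustment (0 of 3042 tested in the adult and 0 of 3091 at E18.5), and no region anywhere did (0%, with smallest adjusted p of 0.438 and 1). At an unadjusted p under 0.05, 25 desert regions were slow-higher (0.822%, background 0.488%) and 55 fast-higher (1.81%, background 2.94%) in the adult, and 12 (0.388%, background 0.229%) and 15 (0.485%, background 0.602%) at E18.5. With 6 against 6 the smallest p was 0.00216, before an adjustment over all tested regions. In the adult, 4 desert regions were called in all 6 slow-biased and no fast-biased libraries (0.0113%, background 0.004%), and 12 the other way (0.0338%, background 0.0471%). At E18.5 there were 0 of each kind (background 0.000666% and 0.00488%). Adult slow-biased lists were shorter (153684 ± 33728 peaks, against 179502 ± 25869, SD, n = 6 each), and the part of this in the excess of fast-only regions was not tested.

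The regions that separated the adult muscles were chosen for that pattern, so they are listed as a description and named after their values were seen. The 4 slow-only regions lay between Tmem64 and Calb1 (chr4:15595540-15596896), Mn1 and Cryba4 (chr5:111880102-111880821), C1d and Etaa1 (chr11:17737411-17738134) and A1bg and Myc (chr15:61308342-61309592). They were called in 0, 2, 0 and 1 of 12 E18.5 libraries. Of the 12 fast-only regions, a pair lay in the lncRNA gene Gm13481 between Zeb2 and Acvr2a, 513 and 497 kb from Acvr2a. Another lay 301 kb from Rora (chr9:68351093-68352440), a nuclear receptor, and another 304 kb from Irx1 (chr13:71652903-71654228), an Iroquois homeobox gene. The one at chr14:45982931-45984981 lay 325 kb from Ddhd1 and 399 kb from Bmp4, a bone morphogenetic protein. It was called in 12 of 12 E18.5 libraries, so that it was missing only from adult soleus and vastus intermedius. The regions of the pair were each called in 1 E18.5 library, that near Rora in 1 and that near Irx1 in 3. The other fast-only regions lay nearest to Adgrl2, Tusc1, Usp24, Kazn, Castor2, Klf6 and Jarid2. They were called in 1, 3, 6, 3, 3, 0 and 2 E18.5 libraries. The genes described were picked and do not stand for all 12 regions.

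Whole deserts were compared in the same way, by the number of regions called per library (exact permutation test, 604 deserts with 10 or more regions). In this exact permutation test none passed after adjustment in the adult (0, smallest adjusted p = 0.981) or at E18.5 (0, smallest adjusted p = 1). At an unadjusted p under 0.05, 17 deserts (2.81%) had more calls in adult fast-biased and 2 (0.331%) in adult slow-biased muscles, and at E18.5 0 and 5 (0.828%). Between Rps24 and Zmiz1 adult slow-biased libraries called 54.0 ± 9.01 and fast-biased ones 68.7 ± 5.43 (6 libraries each, mean ± SD, exact permutation p = 0.00649, adjusted 0.981). Between Vps13c and Rora they were 6.83 ± 1.72 and 12.3 ± 1.75 of 38 regions (p = 0.00433, adjusted 0.981, exact permutation), and at E18.5 4.00 in either class. Fast-biased lists were longer on average in the adult, though those of soleus were not short, as given above.

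Which genes border deserts was described with 6 lists of genes chosen for this tissue with the study's regions and the usual neighbours of deserts in mind, so the shares are not evidence of their own. Of all 20665 protein-coding genes, 1243 (6.02%) flanked a desert with a region. Of 105 transcription factors of limb, muscle and mesenchyme, 60 (57.1%) did, of 74 genes of cell adhesion and axon guidance 61 (82.4%), of 36 genes of extracellular matrix 12 (33.3%) and of 70 secreted signals and their regulators 21 (30.0%). Of 46 genes of contraction and excitation 1 (2.17%) did: Myom2, an M-band protein of the sarcomere, beside a desert of 47 regions. Of 14 markers of other cell types 3 (21.4%) did, and of 1458 olfactory and vomeronasal receptor genes 2 (0.137%).

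Stage-called deserts bordered genes of several lists. A desert with an E18.5-higher region was flanked by 34 of the 105 transcription factors (32.4%), 33 of the 74 adhesion genes (44.6%), 12 of the 70 signals (17.1%) and 7 of the 36 matrix genes (19.4%), against 2.62% of all genes. A desert with an adult-higher region was flanked by 13 (12.4%), 2 (2.70%), 1 (1.43%) and 2 (5.56%), against 0.639% of all genes. Much of this restates which genes border a desert at all: among genes that flank one, 43.6% of all genes had an E18.5-higher region in it, against 56.7% of transcription factors, 54.1% of adhesion genes, 57.1% of signals and 58.3% of matrix genes. For adult-higher regions the shares were 10.6% of all flanking genes and 21.7%, 3.28%, 4.76% and 16.7% of these lists. Among signals, the desert between Lyplal1 and Tgfb2, a transforming growth factor, held 22 regions with 4 E18.5-higher and 0 adult-higher, and adult libraries called 4.58 ± 0.520 of them against 9.17 ± 0.878 in E18.5 libraries (mean of 3 adults or 3 litters with its SD). Among matrix genes, the desert between Fn1, fibronectin, and Mreg held 23 regions, 4 E18.5-higher, with 4.08 ± 1.01 and 9.50 ± 2.00 called. The desert between Sntb1 and Has2 held 38, 5 of them E18.5-higher, with 6.33 ± 2.36 and 13.5 ± 3.50 called. Among adhesion genes, large deserts without stage calls were common: the one between Cdh6 and Cdh9, a pair of cadherins, held 152 regions, 38 in 10 or more lists, and 0 passed in either direction. These genes were named after their values were seen.

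LncRNA genes overlapped 4901 of the desert regions. Those regions were called in 10 or more lists in 17.5% of cases, against 16.3% of the 30610 outside lncRNA genes, and 102 were E18.5-higher and 23 adult-higher of 1605 tested, against 516 and 84 of 9246. Of the 259 regions touched by a promoter window, 91 (35.1%) were called in 10 or more lists and 6 (2.32%) in all 24. Of 127 of these tested, 10 were E18.5-higher and 5 adult-higher. Over all desert regions it was 618 and 107 of 10851 tested, and over all kept regions 7561 and 2602 of 165986. Whether the touched regions differ from these was not tested. In the desert between Ubash3b and Gm40514, which hosts Mir100 and Mir125b-1, 62 of 68 regions overlapped a lncRNA gene. There 4 regions were called in all 24 lists, 7 were E18.5-higher and 2 adult-higher of 30 tested, and adult libraries called 13 to 25 regions (median 19.5) against 15 to 33 at E18.5 (median 28.0). That desert was chosen after its values were seen.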

How the data were processed

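ATAC-seq peaks of 24 libraries (4 muscles, 3 adults and 3 litters) were used. The authors deposited 1 list per library with the position of each peak on mm10 and no count, signal or other score, so the only values taken from the deposited files are positions and yes-or-no calls. The aligner named in the submitters' processing notes is Bowtie2 2.4.4 and the peak caller MACS2 2.1.1. The notes also name Picard, bedtools 2.25.0, Trimmomatic 0.39.0 and FastQC 0.11.5, and for alignment files SAMtools 1.14.0. Peak thresholds, read shift, handling of multiply mapped reads and depth: not given in the sources used here. A library without a call may have missed an open region. No pair of lists was identical (0).

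Peaks of chromosomes 1 to 19 were merged where they overlapped or touched, and a library called a region with a peak overlapping it by 1 bp or more (Python 3.11.15, NumPy 2.4.6, pandas 2.3.3, SciPy 1.17.1). Coordinates are 1-based. Gene positions came from RefSeq (GRCm38.p6, 20665 protein-coding genes), without strand or exons. A desert is the gap between neighbouring protein-coding genes, or between a gene and a chromosome end. Deserts at chromosome ends held 214 of the desert regions, with 39.7% of these in 10 or more lists and 9.81% in all 24. Shares were compared by exact permutation tests and single regions by Fisher's exact test, two-sided, with Benjamini-Hochberg adjustment over all testable regions at 0.05, after a test on simulated data. Same-numbered libraries come from the same animal or litter, per the labels. The mean correlation of their deviations over desert regions was 0.00673 in adults and 0.0712 at E18.5 (18 pairs each). Pairs of different animals or litters had -0.00335 and -0.0356 (36 pairs each). The highest pair of 1 litter was at 0.153, against 0.0187 in 1 adult.

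Named deserts were the 12 with the most regions in 10 or more lists and the 5 with the most regions of each stage direction. Named regions were the 5 of smallest p per direction, the 5 in all lists farthest from genes and the farthest of all, and others are marked as chosen after their values were seen. The desert regions, lists and tests were chosen with earlier results of these data known. Alternatives were list length, overlap, peak width, number of lists, distance, lncRNA genes, leaving out each animal or litter and blocking on it. Chromosomes X and Y were left out, and printed sequences were not taken from chromosome 18. Some results are not reported here.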

Additional observations from a re-analysis of the deposited data

Results flagged for a closer look

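The groups of 4 to 10 libraries compared by muscle class were checked for a library far from the others (88 groups, of which 4 stood out, where chance gives about 1 in 20). In the desert share of adult thigh muscles, vastus lateralis of the first adult was at 8.09%, and the other thigh libraries at 5.58% to 6.19%. Its list was the longest of the adult lists, at 219114 peaks. Between Myc and Gsdmc, gastrocnemius of the first litter called 66 regions, the most among the E18.5 fast-biased libraries. Between Cetn3 and Mef2c the same library called 22. Between Tbc1d22a and Tafa5, soleus of the second litter called 60, the most among the E18.5 slow-biased libraries, and its list was the longest of all 24, at 228137 peaks.

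The rule covered chromosomes 1 to 19. On chromosome X, 1141 of 5393 regions called in 2 or more lists (21.2%) lay more than 200 kb from protein-coding genes, 459 of them in 10 or more lists. On chromosome Y, 1086 of 3773 (28.8%) did, 481 of them in 10 or more lists. Both shares are above the 7.88% of the other chromosomes, and no comparison was made on them.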

How the results depend on the processing

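The desert share of adults minus E18.5, 0.704 points in the main setting, turned to -0.0672 with only peaks of 500 bp or wider and to -0.0369 with regions of 10 or more lists. Leaving out an adult or a litter left it between 0.401 and 0.897. Slow minus fast in the adult turned to -0.144 without the third adult (range over leave-outs -0.144 to 0.495). No share passed its test in any setting. Blocking on the replicate (replicate block) gave 0.194 and 0.384 for slow minus fast in the adult and at E18.5 (exact permutation p = 0.759 and 0.167) and 0.626 and -0.321 for calf minus thigh (p = 0.25 and 0.333, exact permutation). The counts of regions and deserts that differ between slow-biased and fast-biased muscles were 0 in every setting, the block included. These 0 counts say little, since few libraries enter. In the blocked exact tests the smallest p was 0.00926, before an adjustment over all tested regions or deserts.

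Counts of stage-called desert regions moved with the setting, E18.5-higher and adult-higher in that order against 618 and 107. An equal number of peaks drawn at random from each list (as many as the shortest holds) gave 73 and 10, with 1 and 0 regions separated fully. Over all kept regions it gave 828 and 344, against 7561 and 2602 in the main setting. Calls that cover 50% of a region gave 50 adult-higher regions and 15 called in all E18.5 and no adult library. Peaks of 500 bp or wider gave 7 called in all adult and no E18.5 library. A limit of 100 kb gave 1250 and 249, with 70 and 12 separated, and 500 kb gave 104 and 19, with 6 and 2. Counting distance to lncRNA genes too gave 118 and 13, with 6 and 1 separated. The first rows of each list, as many as the shortest holds, gave 813 and 141. Cut to 50% as many, they gave 756 and 205, and 8 separated. Both settings were chosen after seeing the data, and the order of rows is not stated. Leaving out an adult or litter gave 264 to 726 and 39 to 90, with 41 to 101 and 4 to 9 separated, in part because fewer libraries enter. E18.5-higher regions outnumbered adult-higher ones in each of these settings. For the others the cause was not tested.

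Of 176 values of the 10 named stage regions under the alternatives, 173 kept direction and side of the threshold, 3 kept direction only (highest adjusted p = 0.121, Fisher's exact test) and 0 turned. Read depth was unknown, so what it limits could not be measured, and list length varied between 115333 and 228137 peaks.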
